A study of Homo sapiens with 12 samples.

Results

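Epithelial cells that undergo an epithelial-mesenchymal transition lose their tight contacts with neighbours and take on the shape, matrix and motility of mesenchymal cells. The transition is driven by a small set of transcription factors that repress junction genes, among them the E-cadherin gene CDH1, by binding E-box motifs in their promoters, and it is followed by the appearance of mesenchymal proteins. In carcinomas of the colon and pancreas these factors and proteins are widely used to tell cells of epithelial character from cells of mesenchymal character. Measured here were 8 such genes. They were 5 factors, the zinc finger repressors SNAI1 (Snail), SNAI2 (Slug), ZEB1 and ZEB2 and the basic helix-loop-helix factor TWIST1, and 3 markers, the intermediate filament protein vimentin (VIM), N-cadherin (CDH2) and the matrix protein fibronectin (FN1). The genes were chosen by name, and all 8 had a row of their own among the 34687 rows of the expression table.

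RNA came from 2 established human carcinoma lines, HCT116 from colon and PANC1 from pancreas. Each line received DMSO at 0.05%, ICG-001 at 10 uM or C646 at 10 uM and was collected after 12 or 96 h, which gave 12 groups with 1 column of array signals each. ICG-001 blocks the binding of β-catenin to the co-activator CBP, and C646 inhibits the acetyltransferase activity of CBP and of its relative p300. A column holds the mean that the authors took over 2 arrays (3 for PANC1 with ICG-001 at 12 h). The spread between replicates is therefore unknown, no test was run and none of the differences below had a replicate check. The cultures collected at 12 h were treated at a higher density than those collected at 96 h, which were passaged and given fresh medium with drug each day, so time and culture handling cannot be told apart.

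Signals are fluorescence intensities that still include background. A detection limit was set in each column from the distribution of its own background values, and it lay between 143.2 and 144.0 in HCT116 and between 134.8 and 138.0 in PANC1, with 15433 to 16600 genes above it per column. Colon markers above the limit in all 6 HCT116 columns were CDX2, EPCAM and CDH1, and GPA33 was above it in 5 columns, whereas CDX1, CDH17, LGALS4 and VIL1 were above it in 0. Duct markers above the limit in all 6 PANC1 columns were KRT7, KRT8, KRT18, KRT19, SOX9 and CA2, whereas ONECUT2 was above it in 1. The colon markers CDX2 and GPA33 were above it in all 6 PANC1 columns too, and LGALS4 in 5. Of the 8 duct markers, 7 were above the limit in every HCT116 column and 6 in every PANC1 column. Of the 8 colon markers, it was 3 in HCT116 and 4 in PANC1. By detection, neither list thus set the lines apart. Of 8 fibroblast markers, 7 were at or under the limit in every HCT116 column, and 5, among them PDGFRA, PDGFRB, DCN, LUM and COL1A2, in every PANC1 column. The summed signal of these 8 genes was 1052.5 to 1099.1 in HCT116 and 1195.4 to 1527.1 in PANC1.

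The regions before the start sites of the genes on which the results turn are shown first, because the factors act through short motifs found there. The E-box searched was CACCTG, which reads CAGGTG on the opposite strand, in RefSeq promoter windows (build GRCh38.p14) that run from 250 bases before a start site to 50 bases after it. Windows were given for 5 of the 8 genes, ZEB1, ZEB2, VIM, CDH2 and FN1. The 250 bases before the outermost start of VIM (chr10:17227991-17228240, plus strand), CDH2 (chr18:28177131-28177380, minus strand) and ZEB1 (chr10:31318167-31318416, plus strand) are given with each E-box in capitals. They are followed by CRB3 (chr19:6464021-6464270, plus strand), an apical polarity gene, and AP1M2 (chr19:10587313-10587562, minus strand), which encodes an adaptor subunit for sorting in epithelial cells. Both genes were dimmer in PANC1 than in HCT116 at both times. They had the most E-boxes in this stretch among the epithelial genes of this kind that were considered for display. Not all such genes were considered, so others may hold as many or more.
VIM: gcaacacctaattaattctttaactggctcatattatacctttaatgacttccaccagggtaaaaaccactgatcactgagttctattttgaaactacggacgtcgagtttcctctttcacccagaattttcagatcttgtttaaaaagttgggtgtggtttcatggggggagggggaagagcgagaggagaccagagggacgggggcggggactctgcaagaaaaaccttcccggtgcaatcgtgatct
CDH2: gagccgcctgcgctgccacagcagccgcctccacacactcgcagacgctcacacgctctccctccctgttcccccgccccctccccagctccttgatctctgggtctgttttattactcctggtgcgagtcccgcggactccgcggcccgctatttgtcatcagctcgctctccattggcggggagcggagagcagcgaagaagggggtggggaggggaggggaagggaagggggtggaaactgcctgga
ZEB1: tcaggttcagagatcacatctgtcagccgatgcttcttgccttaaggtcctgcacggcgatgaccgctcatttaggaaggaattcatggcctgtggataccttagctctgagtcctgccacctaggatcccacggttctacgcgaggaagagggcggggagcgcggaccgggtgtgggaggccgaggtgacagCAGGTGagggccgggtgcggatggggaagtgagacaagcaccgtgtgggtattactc
CRB3: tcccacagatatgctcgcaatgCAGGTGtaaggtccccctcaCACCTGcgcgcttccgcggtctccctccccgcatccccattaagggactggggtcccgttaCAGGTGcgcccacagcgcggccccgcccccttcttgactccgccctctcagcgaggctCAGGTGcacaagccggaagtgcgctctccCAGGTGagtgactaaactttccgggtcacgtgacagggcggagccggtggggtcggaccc
AP1M2: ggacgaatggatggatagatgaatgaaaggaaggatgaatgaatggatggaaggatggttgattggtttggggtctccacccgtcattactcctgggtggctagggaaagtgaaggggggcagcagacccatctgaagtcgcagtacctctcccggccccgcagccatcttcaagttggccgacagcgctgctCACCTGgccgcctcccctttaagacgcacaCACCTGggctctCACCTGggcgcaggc

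No E-box of this spelling lay in the VIM or CDH2 stretch. The ZEB1 stretch held 1, whose first base lay 57 bases before the start. CRB3 held 5, at 228, 208, 147, 89 and 60 bases before its start, and AP1M2 held 3, at 57, 27 and 15 bases. Over all start sites given for the genes, 2 of 12 windows held the motif, both of ZEB1, and none of the windows of ZEB2, VIM, CDH2 or FN1 did. Among 47 genes listed for epithelial junctions and identity, 25 had a promoter, and 20 of their 38 windows (52.6%) held the motif, compared with 5 of 54 windows (9.26%) of the mesenchymal genes listed and 20.6% of the 35116 windows of all genes. The median GC content was 65.7% in the epithelial windows, 63.5% in the mesenchymal windows and 58.7% in all windows. Of the epithelial genes that were dimmer in PANC1 at both times, 11 of 14 had the motif in a window, and of the others 7 of 11 did. These counts describe letters in the windows and not binding.

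The factors gave little signal in either line. SNAI1 was above the limit in 1 of 12 columns, HCT116 with C646 at 96 h. Its signals in HCT116 were 131.0 and 137.8 with DMSO at 12 and 96 h, 125.0 and 121.6 with ICG-001, then 123.3 and 148.1 under C646. Its signals in PANC1, 114.5 to 131.3, were all at or under the limit. SNAI2, the relative of SNAI1, was also above the limit in 1 column, HCT116 with ICG-001 at 12 h. In HCT116 it gave 126.3 and 134.8 with DMSO, 148.8 and 136.5 with ICG-001, then 130.0 and 133.3 under C646. In PANC1 its signals, 121.4 to 130.9, never passed the limit. The single values above the limit were at least 1.03-fold over DMSO for SNAI1 and at least 1.04-fold for SNAI2, and neither gene was above the limit at the other time with the same drug. With normexp background correction SNAI2 in HCT116 with ICG-001 at 12 h was 1.73-fold over DMSO, past 1.5-fold.

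ZEB1 and ZEB2 were distributed differently over the columns. ZEB1 was at or under the limit in all 6 HCT116 columns, at 115.6 to 123.1, and above it in 5 of 6 PANC1 columns. In PANC1 its signals were 157.2 and 144.9 with DMSO at 12 and 96 h, 147.2 and 145.8 with ICG-001, then 133.4 and 142.3 under C646. The C646 column at 12 h was the one at or under the limit, and the DMSO column at 12 h was the brightest. ZEB2 exceeded the limit in 1 column, PANC1 with DMSO at 12 h. Its PANC1 signals were 144.0 and 128.2 with DMSO, 126.6 and 123.6 with ICG-001, then 124.8 and 121.4 under C646. In HCT116 ZEB2 ran from 123.1 to 142.6 without passing the limit. Its DMSO signals were nearly equal in the lines (144.0 in PANC1 against 142.6 in HCT116 at 12 h), and the limit in that column was lower in PANC1, at 137.3 against 143.2. A row under an older name of ZEB2, SIP1, was not used because that name is shared with other genes.

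TWIST1 had the opposite distribution to ZEB1. It was above the limit in 5 of 6 HCT116 columns and in 0 of 6 PANC1 columns. In HCT116 its signals were 158.2 and 192.5 with DMSO at 12 and 96 h, 150.8 and 162.6 with ICG-001, then 141.4 and 146.5 under C646. At each time the order was DMSO, ICG-001, C646 from bright to dim, and the C646 column at 12 h was at or under the limit. In PANC1 the signals of TWIST1 lay between 117.3 and 131.9.

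Of the markers, VIM was above the limit in all 12 columns and CDH2 in the 6 PANC1 columns alone, whereas FN1 was above it in 0. The VIM signals in HCT116 were 335.1 and 319.5 with DMSO at 12 and 96 h, 281.1 and 269.0 with ICG-001, then 258.0 and 257.2 under C646. In PANC1 they were 16339 and 18144 with DMSO, 17090.4 and 14637 with ICG-001, then 17654 and 17866 under C646. The HCT116 columns formed an order with DMSO brightest and C646 dimmest. Every treated column lay below both DMSO columns, as for 10.8% of the 19188 genes above the limit somewhere in HCT116. In PANC1 the ICG-001 column at 96 h was the lowest and the others lay close together. Because these were bulk samples, fewer cells with VIM RNA and less VIM RNA per cell cannot be told apart.

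CDH2, which joins mesenchymal and neural cells in place of E-cadherin, gave 1548 and 2185 with DMSO in PANC1 at 12 and 96 h, 1571 and 2288 with ICG-001, then 1932 and 1829 under C646. Both 96 h columns with DMSO and ICG-001 were brighter than every 12 h column, and the C646 columns lay between. In HCT116 CDH2 stayed between 124.5 and 130.6, under the limit. FN1 ran from 125.5 to 128.1 in HCT116 and from 117.7 to 121.5 in PANC1, all at or under the limit. The probe behind the FN1 value was not given, so its level at background holds for that probe alone. In all, 1 of the 8 genes in HCT116 and 2 in PANC1 were above the limit in every column of the line, compared with 37.2% and 38.9% of all genes.

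**Figure D1:**
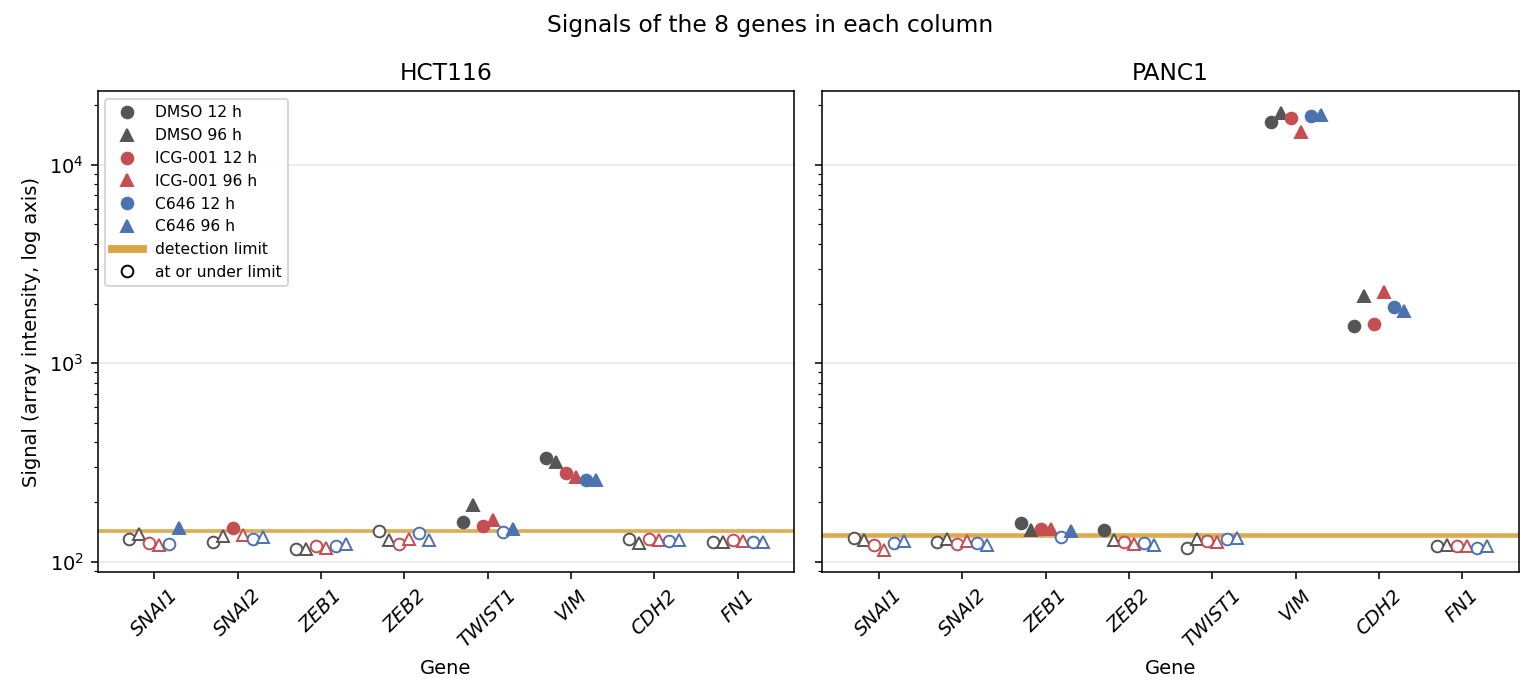
Signal of each gene (log axis, array intensity) in the 6 columns of HCT116 (left) and PANC1 (right); circles are 12 h, triangles 96 h, colours the treatment, open symbols values at or under the detection limit (band). VIM in PANC1 sits between 14637 and 18144 and CDH2 between 1548 and 2288, whereas the factors stay near the limit in both lines.

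The first question was whether either drug moved these genes. Genes were compared where 1 or both columns exceeded the limit, and a difference of 1.5-fold or more, up or down, was counted. Of the 64 ratios of a drug over DMSO at the same time (8 genes, 8 comparisons), 24 could be compared, and 0 reached 1.5-fold. The share of all genes that were higher and lower by this measure was 4.82% and 4.15% for HCT116 given ICG-001 for 12 h and 5.14% and 5.11% for 96 h, whereas C646 gave 2.58% and 1.52% at 12 h and 1.9% and 1.23% at 96 h. In PANC1 it was 2.17% and 0.334% for ICG-001 at 12 h, then 3.84% and 3.55% at 96 h, and for C646 3.99% and 2.69% at 12 h, then 2.81% and 1.19% at 96 h. With shares this low and 2 to 4 genes compared at a time, a count of 0 is near the background. The 2 drugs were set against the same DMSO column at each time, so their ratios are not independent.

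The largest ratio over DMSO, by size, belonged to TWIST1 in HCT116 with C646 at 96 h, a log2 ratio of -0.39, or 1.31-fold dimmer than DMSO. It was lower than those of 95.9% of the genes compared there. The other ratios of TWIST1 in this line were -0.07 and -0.24 with ICG-001 at 12 and 96 h and -0.16 with C646 at 12 h, where the drug column was at or under the limit. All 4 were below 0 against the DMSO column of the same time. Against the DMSO column of the other time, ICG-001 at 96 h turned to 0.04, C646 at 96 h was -0.11, and the ratios at 12 h were -0.35 with ICG-001 and -0.44 with C646. Background left in dim signals shrinks ratios, and normexp background correction stretches them, noise included. After it the ratio of TWIST1 with C646 at 96 h was -0.92, past 1.5-fold. ZEB2 in HCT116 with ICG-001 at 12 h, at or under the limit in both columns, went to -0.80. Whether TWIST1 RNA changed was not tested. The same correction took ZEB1 in PANC1 with C646 at 12 h to -0.66, also past 1.5-fold.

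VIM in HCT116 was also dimmer in every treated column. Its log2 ratios were -0.25 and -0.25 with ICG-001 at 12 and 96 h, against -0.38 and -0.31 under C646. The ratio with C646 at 12 h was lower than those of 94.6% of genes, and that with ICG-001 at 12 h than those of 82.9%. All 4 treated columns lay below both DMSO columns, as they did for 10.8% of the 19188 genes above the limit somewhere in HCT116. In PANC1 the log2 ratios of VIM were 0.06 and -0.31 with ICG-001, against 0.11 and -0.02 under C646, and the treated and DMSO columns overlapped. The gene with every treated column below both DMSO columns in PANC1 was ZEB2, as for 13.2% of 19478 genes, and 5 of its 6 values there were at or under the limit.

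The log2 ratios of CDH2 in PANC1 were 0.02 and 0.07 with ICG-001, against 0.32 and -0.26 under C646. Of the genes compared, 10.4% had a higher ratio than CDH2 with C646 at 12 h, and 11.8% a lower one at 96 h. The signs of the CDH2 ratios depended on the DMSO column used. Against that of the other time, the ratios were -0.48 and 0.56 for ICG-001 at 12 and 96 h, and -0.18 and 0.24 for C646, so that both C646 ratios and that of ICG-001 at 12 h turned over. The log2 ratios of ZEB1 were -0.09 and 0.01 with ICG-001, against -0.24 and -0.03 under C646. For scale, the SD of log2 ratios among genes at or under the limit in every column of the line, which holds the noise of dim probes, was 0.062 to 0.073 in the comparisons within a line. It does not measure the noise of genes as bright as CDH2 in PANC1.

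**Figure D2:**
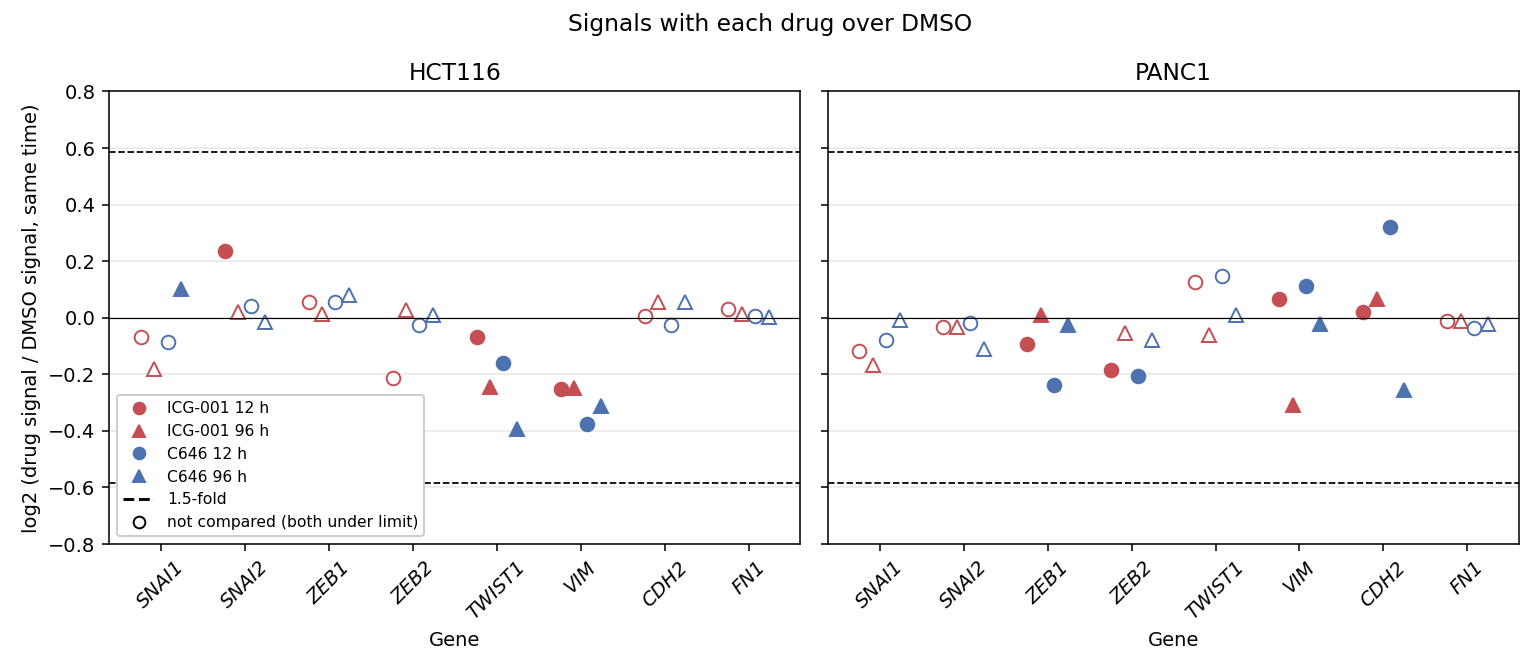
Log2 ratio of each gene's signal with a drug over DMSO at the same time, for HCT116 (left) and PANC1 (right); filled symbols were compared, open symbols had both columns at or under the limit, and dashed lines mark 1.5-fold. All points lie inside the dashed lines, and the lowest is TWIST1 in HCT116 with C646 at 96 h (-0.39).

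The drugs were then set against each other at the same dose and time. In the 4 comparisons of ICG-001 over C646, 0 of the 8 genes differed by 1.5-fold or more, where 6.25% and 6.52% of genes did so in HCT116 at 12 and 96 h and 2.49% and 6.76% in PANC1. CDH2 in PANC1 had log2 ratios of -0.30 at 12 h and 0.32 at 96 h, so that its signal was lower with ICG-001 at the first time and higher at the second. VIM in PANC1 was lower with ICG-001 at 96 h, at -0.29, and differed by -0.05 at 12 h. In HCT116 the ratios of VIM were 0.12 and 0.06 and those of TWIST1 were 0.09 and 0.15. In these single columns both genes were brighter with ICG-001 than with C646 at both times, by less than 1.5-fold. The ratio of VIM at 96 h was within the SD of genes under the limit in that comparison, 0.069. TWIST1 with C646 at 12 h was itself at or under the limit.

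Culture in DMSO from 12 to 96 h gave the largest ratio of CDH2 among the comparisons made within PANC1. Its signal in PANC1 was 1.41-fold higher at 96 h (log2 ratio 0.50), above the ratios of 98.3% of genes, but under the 1.5-fold used here. VIM in PANC1 had a log2 ratio of 0.15 and ZEB1 one of -0.12. In HCT116 TWIST1 was higher at 96 h, at 0.28, and VIM differed by -0.07. At 1.5-fold, 0 of the 8 genes were counted in either line, as against 3.1% of genes in HCT116 and 1.31% in PANC1.

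The lines themselves differed far more than the treatments. VIM was 48.8-fold brighter in PANC1 than in HCT116 with DMSO at 12 h (16339 against 335.1) and 56.8-fold at 96 h (18144 against 319.5). Only 0.0114% of genes compared at 12 h had a larger ratio. CDH2 was at least 10.8-fold brighter in PANC1 at 12 h and at least 15.2-fold at 96 h, since its HCT116 signals were under the limit. These 2 genes were counted as higher in PANC1 and 0 as lower, of 5 compared at 12 h and 4 at 96 h. Among all genes, 11.7% were higher and 11.8% lower at 12 h, and 13.1% were higher and 12.5% lower at 96 h. Each line seems to have been normalized on its own, since sorted log2 signals differed by 0.063 to 0.066 between columns of different lines and by 0.0037 to 0.0093 within a line, shifts far smaller than the ratios of VIM and CDH2.

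Among the factors the differences between the lines were under 1.5-fold and partly set by the limit. ZEB1 was at least 1.10-fold brighter in PANC1 at 12 h and at least 1.01-fold at 96 h. TWIST1 was at least 1.15-fold brighter in HCT116 at 12 h and at least 1.39-fold at 96 h. With normexp both passed 1.5-fold at both times, ZEB1 with log2 ratios of PANC1 over HCT116 of 1.75 and 1.39 and TWIST1 with -1.25 and -1.25. In each of these ratios the dimmer line was at or under its limit, and each line was normalized on its own, so their size is uncertain. SNAI1, SNAI2 and FN1 were at or under the limit in all 4 DMSO columns and were not compared.

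The epithelial counterpart ran the other way. CDH1, the adhesion protein that the factors repress, gave 977.4 in HCT116 and 289.4 in PANC1 at 12 h, and 1185 and 352.7 at 96 h. EPCAM, an epithelial surface protein, gave 7630.4 and 812.8 at 12 h, and 8096 and 871.4 at 96 h. Of the epithelial genes listed, 26 of 44 compared were lower in PANC1 and 3 higher at 12 h, with a median log2 ratio of -0.90, compared with -0.03 for all genes. At 96 h 25 were lower and 3 higher of 44, with a median of -1.07. CRB3 was at 394.9 in HCT116 and 122.0 in PANC1 at 12 h, and AP1M2 was at 392.5 and 209.6. Both genes had been picked for display from epithelial genes dimmer in PANC1 at both times, so their lower signals followed from that choice. Whether their E-boxes play a part in these signals was not tested.

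Of the other lists, those of mesenchymal effectors held more genes higher in PANC1 than lower, and that of other transition factors held more lower. Among surface and protease genes, 11 of 16 compared were higher and 2 lower at 12 h (median log2 ratio 1.45), and 10 of 17 higher and 2 lower at 96 h (median 1.33). Among matrix and contractile genes, 10 of 23 were higher and 4 lower at 12 h, with a median of 0.27. Integrins that bind fibronectin and their adaptors had 7 higher and 0 lower of 11 at each time, although FN1 itself gave no signal above the limit. The cytoskeletal and junction partners of VIM and the cadherins had 4 higher and 2 lower of 11 at 12 h (median 0.15), and 4 higher and 3 lower of 10 at 96 h (median 0.06). Other transcription factors of the transition had 2 higher and 4 lower of 14 at 12 h (median -0.19), and 2 higher and 6 lower of 14 at 96 h (median -0.32).

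**Figure D3:**
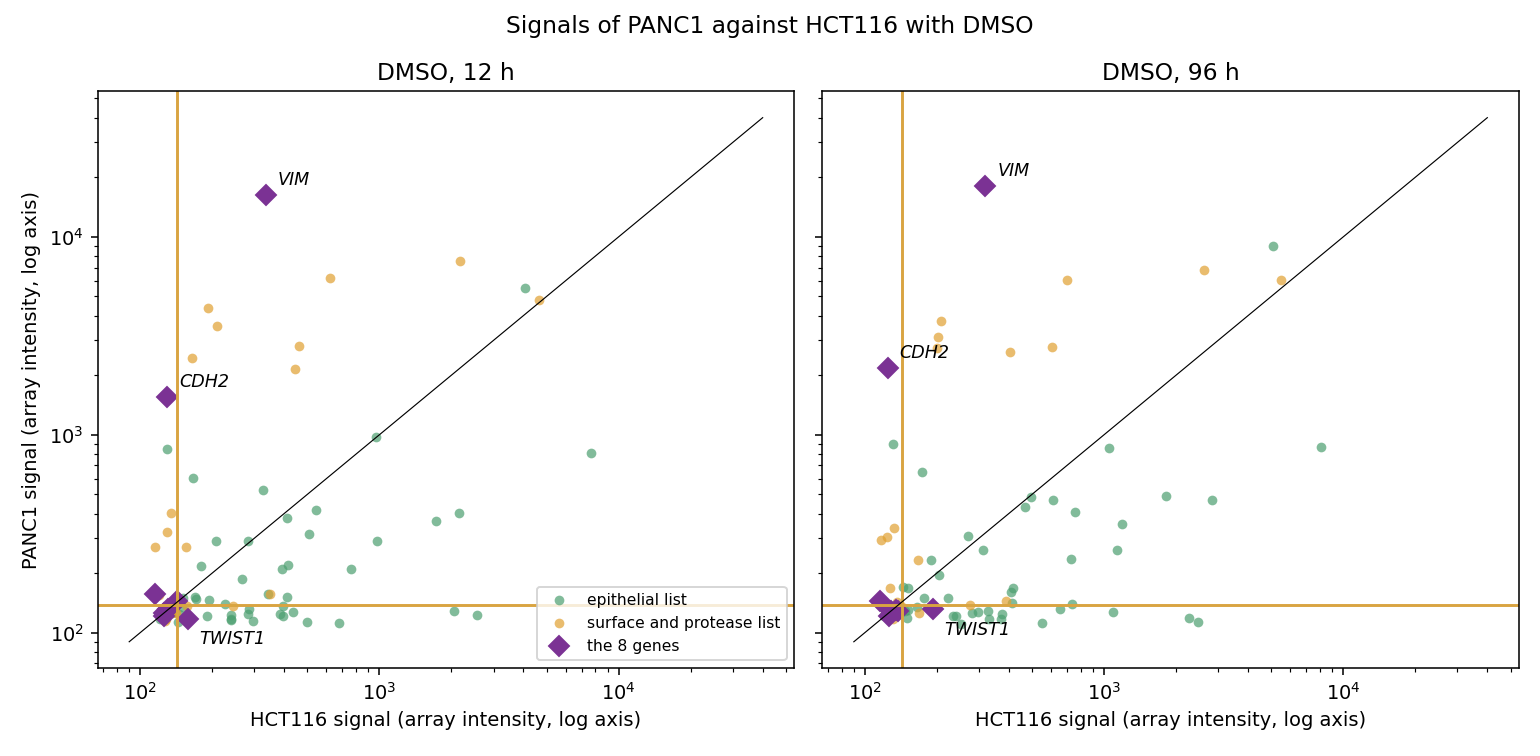
Signal in PANC1 against HCT116 with DMSO at 12 h (left) and 96 h (right), log axes in array intensity; diamonds are the 8 genes, circles the epithelial and the surface and protease lists, lines along the axes the detection limits and the diagonal equal signal. VIM (16339 against 335.1 at 12 h) and CDH2 lie far above the diagonal with most surface and protease genes, and most epithelial genes lie below it.

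Of the 8 genes, 0 were counted at 1.5-fold with either drug, but only 24 of the 64 ratios could be compared. With normexp, SNAI2, TWIST1, ZEB1 and ZEB2 each passed 1.5-fold in at least 1 drug comparison, and the share of all genes that did so is not given. The lists around the 8 genes show which other genes of the transition moved. Genes named below were at least 1.5-fold higher, or at least 1.5-fold lower, at both times with a drug, except CDH1 and EPCAM, which are given in every comparison, and genes said to be named after their values were seen. In HCT116 with ICG-001 the mesenchymal surface and protease list had 5 of 12 genes compared that were higher and 0 lower at 12 h (median log2 ratio 0.55, all genes 0.0004), and 6 of 12 were higher and 0 lower at 96 h (median 0.48, all genes 0.005). The shares of all genes higher and lower were 4.82% and 4.15% at 12 h, and 5.14% and 5.11% at 96 h. The protease urokinase, PLAU, had log2 ratios of 2.26 and 2.63 at 12 and 96 h, from 624.0 to 2994 and from 700.3 to 4341. NT5E (CD73), a surface nucleotidase, had ratios of 1.52 and 1.84, and the receptor kinase AXL had 1.56 and 1.30. With C646, 0 of 12 were higher at 12 h and 1 of 12 at 96 h (all genes 2.58% and 1.9%). In ICG-001 over C646, 5 of 11 were higher at 12 h and 4 of 12 at 96 h, with 0 lower (all genes 6.25% and 6.52% either way). VIM and TWIST1 were dimmer with ICG-001 in these same columns, by less than 1.5-fold.

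Epithelial genes in HCT116 with ICG-001 went both ways, with 8 higher and 3 lower of 43 at 12 h (all genes 4.82% and 4.15%). At 96 h 9 were higher and 3 lower of 44 (all genes 5.14% and 5.11%), and the medians were -0.0004 and 0.10. The tight junction gene CLDN7 had log2 ratios of 0.99 and 1.07 at 12 and 96 h, and LAMB3, a chain of a basement membrane laminin, had 0.98 and 0.99. CDH1 had 0.43 and 0.46, and EPCAM had -0.01 and 0.24. With C646, 2 of 44 were higher and 2 lower at 12 h (all genes 2.58% and 1.52%), and 2 higher and 1 lower at 96 h (1.9% and 1.23%). The membrane protease PRSS8 had 0.64 and 0.93 there, and the epithelial factor EHF had -1.08 and -0.63. CDH1 had -0.14 and 0.37 with C646, and EPCAM -0.22 and -0.28.

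In PANC1 the epithelial list had 1 higher and 0 lower of 28 with ICG-001 at 12 h (all genes 2.17% and 0.334%). At 96 h 3 were higher and 3 lower of 26 (all genes 3.84% and 3.55%). CLDN1, a tight junction gene, had log2 ratios of 0.99 and 1.13. CDH1 had -0.09 and -0.49, and EPCAM had 0.10 and -0.78, from 871.4 to 508.7 at 96 h. With C646 there was 1 higher of 28 at 12 h and 0 at 96 h (all genes 3.99% and 2.81% higher). CDH1 had 0.24 and 0.40 with C646, and EPCAM had -0.05 and -0.16.

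Matrix and contractile genes of PANC1 had 1 higher and 0 lower of 23 with ICG-001 at 12 h (all genes 2.17% and 0.334%). At 96 h 4 were higher and 1 lower of 22 (all genes 3.84% and 3.55%), with a median log2 ratio of 0.21 against 0.003 for all genes. The 4 higher at 96 h, named after their values were seen, were the matrix proteoglycan BGN at 1.92, the actin-binding TAGLN at 1.62, the myosin light chain MYL9 at 1.19 and the tropomyosin TPM1 at 1.07, and the lower one was the matrix protein SPARC at -1.29. With C646, 2 were higher and 1 lower of 23 at 12 h (all genes 3.99% and 2.69%). At 96 h with C646, 4 were higher and 0 lower of 22 (all genes 2.81% and 1.19%), with a median of 0.26 against -0.01 for all genes. The collagen genes COL7A1, with 0.96 and 0.97, and COL5A2, with 0.67 and 0.92, were higher at both times, as was ITGA5, the fibronectin receptor subunit, with 0.71 and 0.80. Of the 8 fibroblast markers, 3 were compared in PANC1. COL1A1, at 181.0 to 378.8, and THY1, at 254.4 to 361.6, were above the limit in all 6 PANC1 columns and COL3A1 in 5, whereas PDGFRA, PDGFRB, DCN, LUM and COL1A2 were above it in 0. With C646 at 96 h, 1 of the 3 was higher (COL1A1, log2 ratio 0.65) and their median was 0.31, with 0.19 at 12 h. With ICG-001 the medians were 0.13 and 0.25 with 0 higher. The part of these markers in the matrix result was not tested. In HCT116, 1 matrix gene of 16 or 17 was higher and 0 lower in each of the 4 comparisons, where 1.9% to 5.14% of all genes were higher. Surface and protease genes in PANC1 had 1 higher of 17 with ICG-001 at 96 h (all genes 3.84%). With C646 at 96 h 1 was lower of 16 (all genes 1.19%), and at 12 h 0 were counted either way with both drugs.

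Counts for 20 other transcription factors that take part in the transition are given beside the shares of all genes that were higher and lower, in that order. In HCT116 with ICG-001, 0 were higher and 3 lower of 13 at 12 h (all genes 4.82% and 4.15%), and 1 was higher and 3 lower of 14 at 96 h (5.14% and 5.11%), with medians of -0.18 and -0.12 against 0.0004 and 0.005 for all genes. SOX4 had log2 ratios of -1.01 and -1.56 with ICG-001, against -0.97 and -0.79 under C646, and ID2, an inhibitor of helix-loop-helix factors, had -1.49 and -1.25 with ICG-001. With C646 in HCT116, 2 of 13 were lower at 12 h and 3 of 13 at 96 h, with 0 higher (all genes 1.52% and 1.23% lower), the medians were -0.15 and -0.08, and SOX9 had -1.41 and -0.71. In PANC1, 2 were higher and 0 lower of 14 with ICG-001 at 12 h (all genes 2.17% and 0.334%, list median 0.07) and 1 higher and 1 lower at 96 h (3.84% and 3.55%, median -0.02), and FOXC1 had 0.62 and 1.04. With C646, 3 were higher and 2 lower of 14 at 12 h (3.99% and 2.69%, median 0.11) and 1 higher and 3 lower at 96 h (2.81% and 1.19%, median -0.22). SOX9 had -0.96 and -0.88 there, TCF3, a partner of TWIST1, had -0.79 and -0.61, and the homeobox factor PRRX2 had 1.32 and 0.59.

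Among partners of the markers in HCT116, CTNNB1 (β-catenin), which links CDH1 and CDH2 to the cytoskeleton, had log2 ratios of -0.61 and -0.63 with ICG-001, against -0.73 and -0.63 under C646. TLN1 (talin), which couples integrins to actin, had -0.63 and -0.80 with ICG-001. Of the partners of the cadherins and VIM, 1 was higher and 2 lower of 11 with ICG-001 at 12 h (all genes 4.82% and 4.15%), 0 higher and 2 lower of 11 at 96 h (5.14% and 5.11%), and 2 and 1 of 10 were lower with C646 at 12 and 96 h (1.52% and 1.23%). In PANC1, 3 of 11 were lower with ICG-001 at 96 h, where 3.55% of all genes were, and 0 moved by 1.5-fold in the other 3 comparisons. Of the fibronectin receptors in HCT116, 0 were higher and 2 of 10 lower at 12 h under each drug. The shares of all genes that were lower there were 4.15% for ICG-001 and 1.52% for C646. At 96 h ICG-001 had 2 higher and 1 lower of 10 (all genes 5.14% and 5.11%). C646 had 1 higher and 0 lower of 10 at that time (1.9% and 1.23%). In PANC1 at most 1 of 11 was counted in 1 direction in any comparison, where 0.334% to 3.99% of all genes were.

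**Figure D4:**
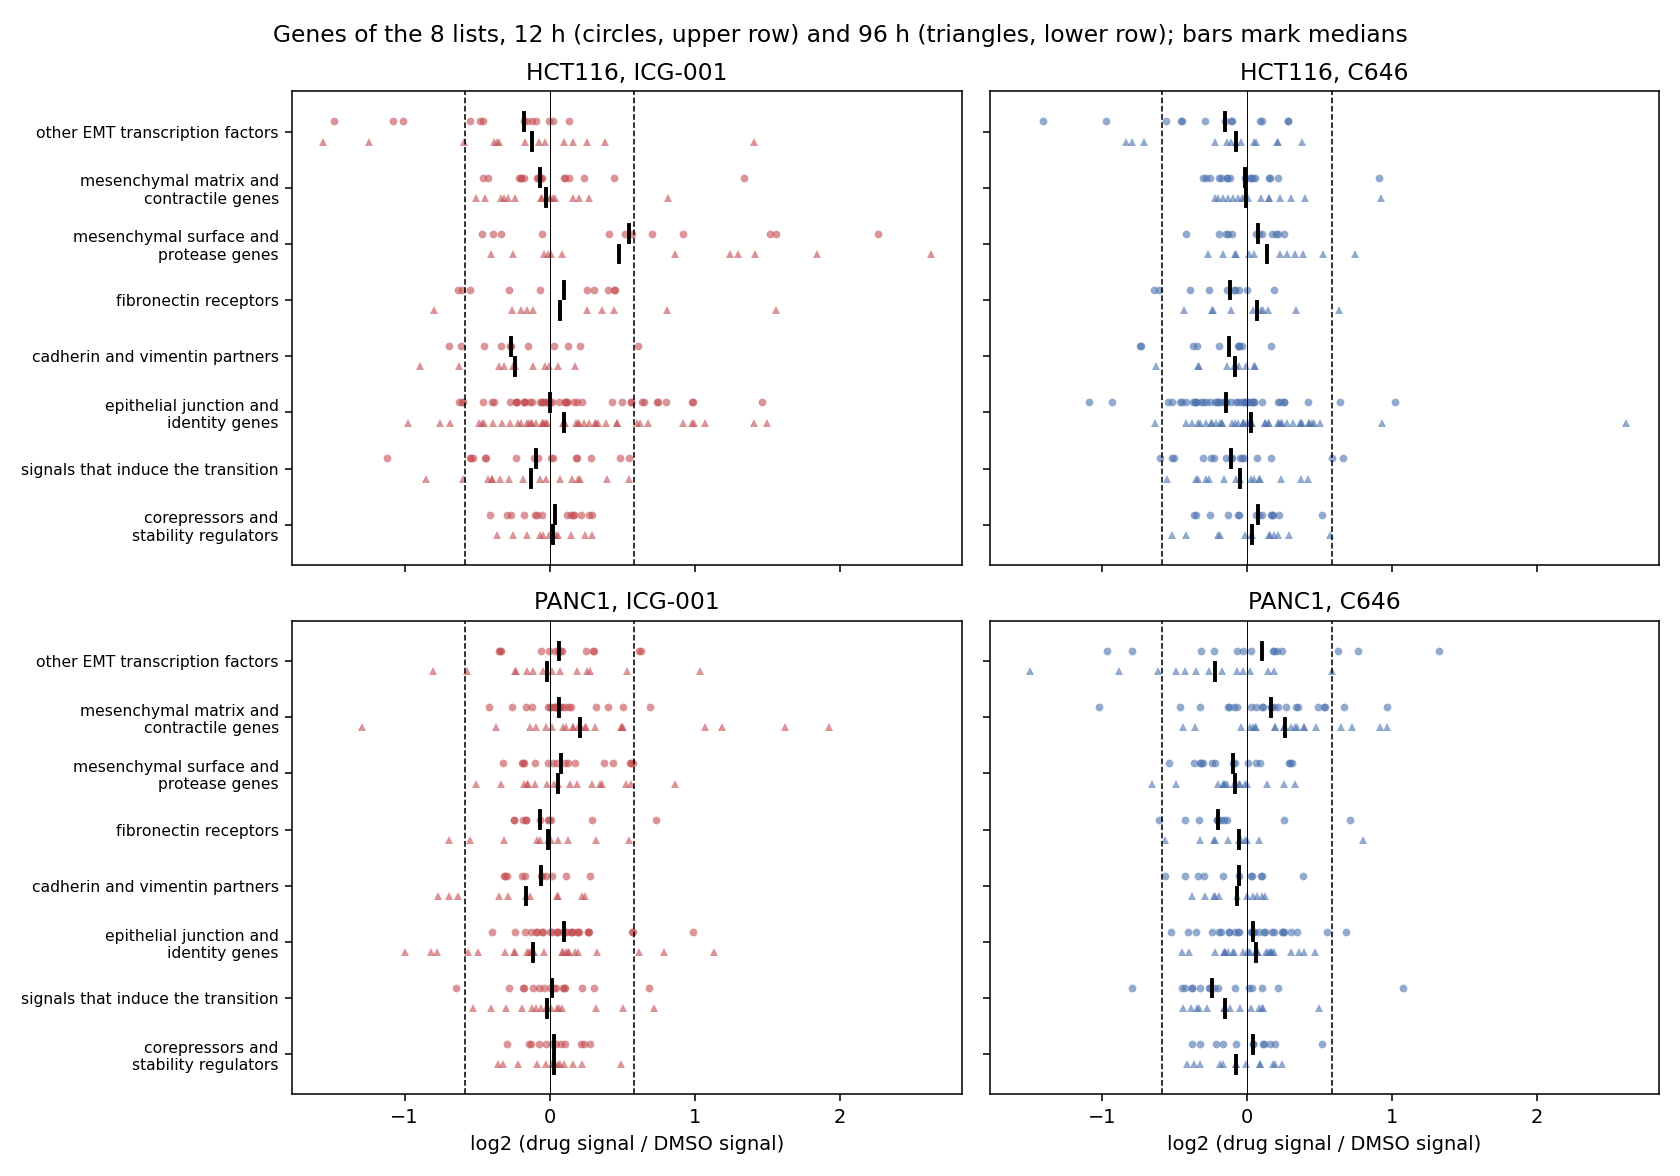
Log2 ratios over DMSO of the genes of 8 lists that could be compared (rows), by line and drug, with circles for 12 h, triangles for 96 h, black bars for list medians and dashed lines at 1.5-fold. The surface and protease list in HCT116 with ICG-001 has its medians at 0.55 and 0.48, and its highest point is PLAU at 2.63.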

How the data were processed

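Total RNA from 2 cell lines was amplified, labelled and hybridized to Illumina HumanHT-12 v4 arrays. The deposited values are intensities on a linear scale, 1 per gene name, which per the labels and the study's methods the authors exported from GenomeStudio after quantile normalization without background subtraction and averaged over replicate arrays. Single arrays and the array annotation build were not used here. All 12 columns were mapped to a group by their labels. The precision is limited by the 2 or 3 arrays behind a column.

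Log2 signals were subtracted between columns. The detection limit lay 2.33 SD over the peak of a column's log2 signals, where values under the peak gave the SD. Genes were compared where 1 or both columns exceeded the limit and counted at 1.5-fold or more. Where 1 column was at or under its limit, a fold is at least the brighter signal over the higher of the dimmer signal and that limit.

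The genes, lists, rules and alternatives were chosen with earlier results of these data known. From the lists, the genes counted in the same direction at both times with a drug were named, up to 4 per list, line and drug by their size at 96 h, with CDH1 and EPCAM added. Some genes that this rule or the marker lists name are not reported here. Genes of the most similar pattern were to be named for each of the 8 genes counted in a drug comparison, and there were 0. Start sites and promoters came from RefSeq (GRCh38.p14).

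Alternatives were thresholds of 1.2- and 2-fold, a limit at 5 SD, no filter on dim genes, normexp background correction (limma 3.58.1 in R 4.3.3, offset 16) with quantile normalization within a line, median centring, quantile normalization over all 12 columns, and the DMSO column of the other time. The comparison between the lines was added after the data were seen. Python 3.11.15 was used with scipy 1.17.1, pandas 2.3.3, numpy 2.4.6 and matplotlib 3.10.9. The calls were tested on simulated 2-fold changes of genes more than 2-fold over the limit. All 5 factors were dimmer than that, so the simulation does not cover them.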

Additional observations from a re-analysis of the deposited data

How the results depend on the processing

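With 1 column per group, no replicate could be left out and no error given, and the depth of signal over background limits the factors, whose values lay near the limit. No paired analysis was possible because each column is a mean over its replicates and carries no replicate number. A fit that pools columns over times or drugs was not run. The counts of genes past the threshold were the same as reported at 2-fold, with no filter on dim genes, with a limit at 5 SD, with median centring, with quantile normalization over 12 columns and with the DMSO column of the other time.

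At 1.2-fold, against 0 reported, 1 of the 8 genes was counted in HCT116 with C646 at 12 h (VIM), 2 at 96 h (VIM and TWIST1), 1 in PANC1 with ICG-001 at 96 h (VIM) and 1 with C646 at 12 h (CDH2). For ICG-001 over C646 it was 1 in HCT116 at 96 h (SNAI1) and, in PANC1, 1 at 12 h (CDH2) and 2 at 96 h (VIM and CDH2). For DMSO at 96 h over 12 h it was 1 in each line (TWIST1, CDH2), and between the lines 4 at each time (VIM, CDH2, ZEB1 and TWIST1) against 2 reported. The share of all genes past 1.2-fold is not given, so these counts cannot be set against the background. For scale, VIM in HCT116 with ICG-001 at 12 h was 1.19-fold dimmer than DMSO, and 17.1% of genes had a lower ratio.

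With normexp, which stretches ratios of dim genes, 1 was counted in HCT116 with ICG-001 at 12 h (SNAI2), 1 with C646 at 96 h (TWIST1, log2 ratio -0.92), 1 in PANC1 with ICG-001 at 12 h (ZEB2) and 2 with C646 at 12 h (ZEB1, -0.66, and ZEB2, -0.66). For ICG-001 over C646 in HCT116 it was 1 at 12 h (SNAI2) and 1 at 96 h (SNAI1, -0.99), for DMSO in HCT116 1 (TWIST1, 0.59), and between the lines 4 at each time (VIM, CDH2, ZEB1 and TWIST1). The share of all genes past 1.5-fold under normexp is not given, so these counts have no background beside them. VIM in HCT116 had no ratio over DMSO below -0.56 under normexp, inside 1.5-fold. Of 128 log2 ratios of the genes, 75 moved under normexp by more than the SD of dim genes, 0 under centring and 2 with quantile normalization over 12 columns, and of 64, 36 moved with the other DMSO column. Of 88 list medians, 35 moved under normexp and 33 with no filter.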

Other observations

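Of 15 genes for corepressors (such as CTBP1, HDAC1, EZH2 and KDM1A) and for enzymes that set the stability of the SNAI proteins (such as GSK3B, BTRC and FBXL14), 0 reached 1.5-fold in any of the 8 drug comparisons, with 12 to 14 compared, and 0 is near the shares of all genes counted (0.334% to 5.14% in 1 direction). Their medians ranged from -0.07 to 0.07. Of 23 genes for signals that induce the transition, 15 or 16 were compared. In HCT116 with ICG-001, 0 were higher and 1 lower at 12 h and 0 higher and 2 lower at 96 h, and with C646 2 were higher and 1 lower at 12 h and 0 either way at 96 h. In PANC1 with ICG-001, 1 was higher and 1 lower at 12 h (all genes 2.17% and 0.334%). At 96 h 1 was higher and 0 lower (3.84% and 3.55%). With C646, 1 was higher and 1 lower at 12 h (3.99% and 2.69%) and 0 either way at 96 h (2.81% and 1.19%). BMP4, a secreted ligand, had log2 ratios of -1.12 and -0.59 in HCT116 with ICG-001 at 12 and 96 h, and the receptor NOTCH1 had 0.69 and 0.72 in PANC1 with ICG-001.

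The array also carried rows for the primary transcripts or hosts of the miRNA family that targets the ZEB transcripts (MIR200A, MIR200B, MIR200C, MIR141 and MIR429). Their signals were 114.8 to 138.2 in HCT116, with 0 values above the limit, and 106.9 to 138.8 in PANC1, with 2 values above it. These rows report the probes named for the precursors and not the mature miRNAs.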
